A study of Mus musculus with 9 samples.

Results

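The genes described here, 10 in all, mark the inhibitory interneurons of the mouse retina, and were followed across the 3 groups of the study: Tfap2a, Tfap2b, Gad1, Gad2, Slc6a9, Slc32a1, Chat, Th, Calb1 and Onecut1. They were chosen by symbol, as the rows of the count table whose Ensembl identifier carries one of these names, and the rule uses no measured value, although the names were picked with earlier results of these data known. All 10 were found once among the 47729 gene identifiers of the table, and all 10 passed the filter on low counts in every comparison. The study sequenced the RNA of whole retinas in 9 libraries, 3 per group, on a C57Bl6/J background. Yap CKO mice were homozygous for a floxed Yap allele and carried Rax-CreERT2, a tamoxifen-dependent Cre whose activity the design text places in Müller cells, the glia that span the retina. Controls had the floxed allele alone, although their genotype entry also reads Yap CKO. Animals of both these groups were given 4-hydroxytamoxifen at P10 and their retinas were taken at P60, 1 frozen retina per library. The C57 group was wild type, was taken at P30 and came as a re-analysis of samples from an earlier record. The letters MNU occur in the library names of both P60 groups, and no label describes a treatment under that name. Age, allele, tamoxifen and source of the data all differ between the P60 groups and C57, so that their effects cannot be told apart. No label states that the 3 libraries of a group came from separate animals, so p-values measure the spread between these libraries only.

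Amacrine cells are interneurons of the inner retina that act on bipolar, ganglion and other amacrine cells, mostly through GABA or glycine. Horizontal cells do the corresponding work in the outer retina, where they feed back onto photoreceptors. Tfap2a and Tfap2b encode AP-2 transcription factors of the amacrine and horizontal lineages, and Onecut1 a factor that specifies horizontal cells. Gad1 and Gad2 make GABA, Slc32a1 loads GABA and glycine into synaptic vesicles, and Slc6a9 takes glycine up from the extracellular space. Chat makes acetylcholine in starburst amacrine cells, Th catalyses the rate-limiting step of dopamine synthesis in dopaminergic amacrine cells, and Calb1 encodes the calcium-binding protein calbindin, which is abundant in mouse horizontal cells and in some amacrine cells. In whole-retina RNA, fewer cells of a type and less RNA per cell cannot be told apart.

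Total counts were 34739679 to 37629264 in the P60 libraries and 13760765 to 16808499 in C57. Yap1, the targeted gene, had 15.2, 21.4 and 24.0 CPM (read counts scaled to library size, with TMM factors) in Yap CKO, 66.3, 60.4 and 56.9 CPM in controls, and 23.9, 25.8 and 31.1 CPM in C57. It was lower in Yap CKO than in controls (log2 fold change -1.60, adjusted p = 0.0327, edgeR). The summed level of 20 rod genes was 1933 to 27890 CPM in Yap CKO and 5534 to 26270 CPM in controls, against 128900 to 149600 CPM in C57, and all 20 were lower in controls than in C57. One library stood apart within its group: the third Yap CKO library had a summed level of 14 lens genes of 1400 CPM, against 6.77 and 33.6 CPM in the other Yap CKO libraries, and also the lowest rod sum of the 9. The C57 libraries differed among themselves by the GC content of the transcript, as described with the comparison against them. One C57 column has a number found in no sample description and is called the unnumbered C57 library.

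Per kilobase of exon, Gad1 and Slc32a1 led the order at P60, with Gad2 in the middle of it, and Onecut1 closed it in every group. In Yap CKO the mean levels were 70.3 CPM per kb for Slc32a1, 64.0 for Gad1, 50.5 for Slc6a9, 35.1 for Tfap2b, 19.5 for Calb1, 18.2 for Gad2, 9.60 for Tfap2a, 4.51 for Th, 4.09 for Chat and 0.772 for Onecut1. In controls Gad1 (66.9 CPM per kb) and Slc32a1 (65.5) led, Chat (4.07) stood above Th (3.28), and the other members kept the places they had in Yap CKO. In C57 Slc6a9 (60.1 CPM per kb) and Gad1 (56.8) led, Slc32a1 (31.2) stood below Tfap2b (34.4) and Calb1 (33.0), and Th (1.65) again stood below Chat (3.66). Neighbours in this order whose libraries overlapped were Gad1 with Slc32a1, Calb1 with Gad2 and Chat with Th in both P60 groups, and also Gad1 with Slc6a9 and Slc6a9 with Tfap2b in Yap CKO. In C57 they were Slc6a9 with Gad1, Tfap2b with Calb1, and Slc32a1 with both Calb1 and Gad2.

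The 3 groups differed in how closely their libraries agreed. Among controls, the highest library of a member exceeded the lowest by 1.03 times for Gad2 and Slc32a1 up to 1.27 times for Chat. Among Yap CKO libraries this ratio was 1.08 for Chat up to 1.70 for Tfap2a. In C57 it ran from 1.10 for Tfap2b to 3.11 for Slc32a1.

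**Figure D1:**
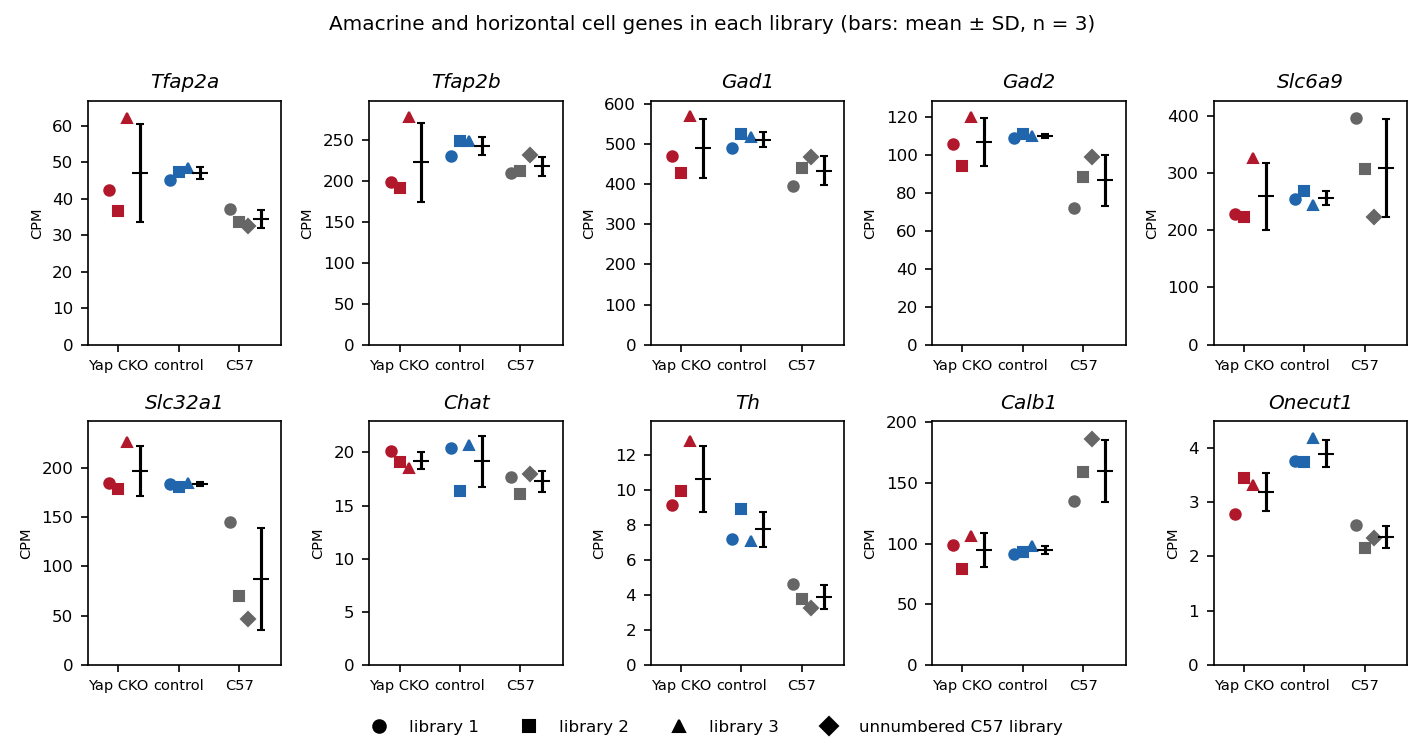
Level of each of the 10 genes in CPM (TMM-scaled, linear axis from 0) in the 3 Yap CKO, 3 control and 3 C57 libraries, with symbols for the library number and black bars for the mean ± SD (n = 3). Th and Slc32a1 lie above C57 in all 6 P60 libraries and Calb1 lies below it, while Slc32a1 spreads from 46.6 to 145 CPM within C57.

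The comparison of Yap CKO with controls asks what the Müller cell deletion of Yap leaves of these interneuron genes in the P60 retina. No member passed the test, and for 7 of 10 the fitted log2 fold change lay within 0.10 of 0. Th and Onecut1 were the members whose Yap CKO and control libraries did not overlap. Across the table, 0.0181% of 16539 genes tested were called higher and 0.181% lower by edgeR at an adjusted p under 0.05, 0.200% in all. At an unadjusted p under 0.05 the count was 1 of 10 members, against 17.8% of all genes. Those 2 of 10 without overlap compare with 25.3% of all genes tested. DESeq2 and limma-voom called no member either. The median log2 fold change of the members was -0.003, and that of all genes 0.01. None of the 10 is among the 305 genes of the authors' deposited table for these groups.

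Th (ENSMUSG00000000214, chr7:142892752-142931128 in GRCm38, minus strand) had 9.17, 9.95 and 12.8 CPM in Yap CKO, against 7.23, 8.93 and 7.10 CPM in controls. Every Yap CKO library exceeded every control, the closest pair being 9.17 and 8.93 CPM. The log2 fold change was 0.45 (SE 0.16) with an adjusted p of 0.206 by edgeR. Leaving out any 1 library gave 0.29 to 0.57 and no call, while a fit with the rod level of each library as a covariate called it (log2 fold change 0.39, adjusted p = 0.0368). That covariate fit called 741 genes higher and 891 lower of 16539 tested. Relative to Slc18a2, the vesicular monoamine transporter of the same cells, Th counts were 1.48, 1.73 and 1.72 in Yap CKO and 0.955, 1.22 and 0.921 in controls. Slc18a2 itself had means of 6.48 CPM in Yap CKO and 7.54 CPM in controls (log2 fold change -0.22, adjusted p = 0.411, edgeR). The longest transcripts have 54.1% GC for Th and 47.2% for Slc18a2, and the ratio carries no correction for GC content.

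Onecut1 (ENSMUSG00000043013, chr9:74861921-74891781, plus strand) had 2.78, 3.44 and 3.31 CPM in Yap CKO, from 110, 133 and 133 counts, against 3.76, 3.73 and 4.17 CPM in controls, from 143, 150 and 172 counts. The groups did not overlap, and the log2 fold change was -0.30 (SE 0.15, adjusted p = 0.339, edgeR). It remained negative in all 20 refits, between -0.36 and -0.21, and none of these called it. Over 52.78% of its exon bases Onecut1 shares sequence with the lincRNA Gm20649 on the same strand, to which the table gave 5 counts in all.

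The AP-2 genes moved with single libraries. Tfap2a (ENSMUSG00000021359, chr13:40715302-40738376, minus strand) had 42.5, 36.6 and 62.1 CPM in Yap CKO, against 45.2, 47.4 and 48.4 CPM in controls. Tfap2b (ENSMUSG00000025927, chr1:19208914-19238576, plus strand) had 199, 191 and 278 CPM in Yap CKO, against 230, 248 and 249 CPM in controls. For both genes the third Yap CKO library lay above all controls and the other Yap CKO libraries lay below them. The log2 fold changes were -0.003 (SE 0.19) for Tfap2a and -0.13 (SE 0.14) for Tfap2b, with adjusted p of 0.996 and 0.699. Without the third Yap CKO library, Tfap2b was called lower (log2 fold change -0.32, adjusted p = 0.0282), and Tfap2a had -0.26 (adjusted p = 0.0854).

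The GABA and glycine genes gave the same picture of libraries. Gad1 (ENSMUSG00000070880, chr2:70553072-70602014, plus strand), which encodes the GAD67 form of glutamate decarboxylase, had 470, 428 and 570 CPM in Yap CKO, against 490, 526 and 517 CPM in controls. Gad2 (ENSMUSG00000026787, chr2:22622205-22693874, plus strand) had 106, 94.4 and 120 CPM in Yap CKO, against 109, 111 and 110 CPM in controls. Slc6a9 (ENSMUSG00000028542, chr4:117834506-117875198, plus strand) had 228, 224 and 327 CPM in Yap CKO, against 255, 269 and 244 CPM in controls. In these 3 genes the controls lay inside the range of Yap CKO, and the third Yap CKO library was highest. Slc32a1 (ENSMUSG00000037771, chr2:158610767-158615748, plus strand) had 185, 179 and 226 CPM in Yap CKO, against 184, 181 and 185 CPM in controls. Its log2 fold change was 0.10 (SE 0.10, adjusted p = 0.653), and those of the other 3 were -0.07, -0.05 and 0.01 for Gad1, Gad2 and Slc6a9, with adjusted p of 0.812, 0.836 and 0.977 by edgeR.

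Chat (ENSMUSG00000021919, chr14:32408203-32465989, minus strand) had 20.1, 19.1 and 18.5 CPM in Yap CKO, against 20.4, 16.4 and 20.7 CPM in controls, and was the member in which the third Yap CKO library was the lowest of its group. Calb1 (ENSMUSG00000028222, chr4:15881264-15908064, plus strand) had 98.7, 79.0 and 106 CPM in Yap CKO, against 91.8, 93.5 and 98.3 CPM in controls. Their log2 fold changes were 0.003 (SE 0.10) and -0.002 (SE 0.11), with adjusted p of 0.993 and 0.995. Slc18a3, the vesicular acetylcholine transporter gene, lies inside the Chat gene on the same strand (chr14:32462438-32464850) and shares none of its exon bases. It had 19.2, 17.8 and 21.8 CPM in Yap CKO, against 15.7, 16.4 and 17.4 CPM in controls (log2 fold change 0.24, adjusted p = 0.269).

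Single Yap CKO libraries held the extremes of most members at P60. The third Yap CKO library was the highest of the 6 P60 libraries for 8 of 10 members, where it was highest for 23.8% of all genes tested. The second Yap CKO library was the lowest for 7 of 10, against 16.6% of all genes. In 20 further amacrine genes the third Yap CKO library was highest for 11 and the second lowest for 11. The third was highest for 7 of 11 other horizontal cell genes, for 11 of 20 bipolar cell genes and for 8 of 19 ganglion cell genes. In the horizontal cell genes the first Yap CKO library was lowest for 7 of 11 and the second for 2. The second was lowest for 5 bipolar and 2 ganglion cell genes, and whether the lists differ in these shares was not tested. The lens and rod sums of the third library, given above, moved with these levels, and their part in the result was not tested. Without that library the members had a median log2 fold change of -0.17 and 8 of 10 were negative, while edgeR called 656 genes higher and 817 lower among 16809 tested.

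**Figure D2:**
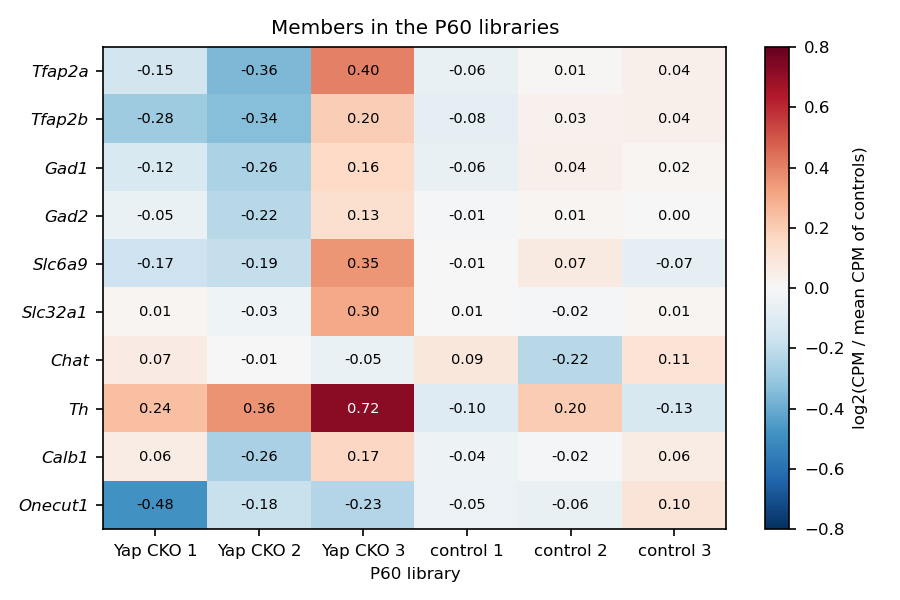
Level of each gene in each P60 library as log2 of its CPM over the mean CPM of the 3 controls, with the 3 Yap CKO libraries to the left of the 3 controls. Red cells lie above the mean of controls and blue cells below it. The third Yap CKO library is red for 8 genes, up to 0.72 for Th, and the second is blue for 9.

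The comparison of controls with C57 sets P60 retinas against younger wild-type ones. In controls, Slc32a1, Th, Onecut1 and Tfap2a were higher and Calb1 was lower than in C57, and 5 members were not called. The 4 higher members compare with 23.1% of 15820 genes called higher and the 1 lower with 22.4% called lower, 45.5% in all. At an unadjusted p under 0.05 the count was 7 of 10 members and 53.6% of all genes. The libraries of the groups did not overlap for 7 of 10 members, against 58.8% of all genes. The median log2 fold change was 0.31 over the members and 0.03 over all genes tested. The rod genes that took 128900 to 149600 CPM in C57 moved with this comparison. Scaling the libraries on bipolar and ganglion cell genes instead called 4 members higher and 1 lower, beside 3294 higher and 3542 lower of 15820 genes. Thinning the P60 libraries to the depth of C57 called 5 members higher and 1 lower, beside 3285 and 3261 of 14776 genes.

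Th had 7.23, 8.93 and 7.10 CPM in controls, from 275, 359 and 293 counts, against 4.63, 3.78 and 3.27 CPM in C57, from 54, 51 and 46 counts. All controls lay above all C57 libraries. It was 2.03-fold higher in controls (log2 fold change 1.02, SE 0.19, adjusted p = 0.00356, edgeR) and was called in all 20 refits, at 0.88 to 1.37. The promoter of Th is shown because Th had the largest fold change of the 10 in Yap CKO over C57 and because it alone, among the 9 members with an entry, held the cyclic AMP response element TGACGTCA, which reads the same on both strands. The sequence is RefSeq's window of 300 bases that ends just after a transcript start, on build GRCm38.p6 (chr7:142899946-142900245, minus strand). That start lies inside the longer GENCODE gene span given above and not at its outer end. Capitals mark that element, whose first base is at -45 from the start, and a match to the AP-1 motif TGANTCA at -210, and the matches do not overlap.
Th promoter: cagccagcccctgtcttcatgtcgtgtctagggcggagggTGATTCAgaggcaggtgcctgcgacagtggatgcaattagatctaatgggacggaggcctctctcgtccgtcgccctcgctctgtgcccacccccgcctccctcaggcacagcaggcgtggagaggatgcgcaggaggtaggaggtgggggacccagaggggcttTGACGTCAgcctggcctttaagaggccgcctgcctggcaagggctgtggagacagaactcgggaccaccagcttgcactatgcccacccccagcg
TGACGTCA occurred in 588 of 32851 promoters of the same length (1.79%) and TGANTCA in 7.81%. The AP-2 motif GCCNNNGGC, searched on both strands, occurred in 16.59% of promoters and among the members in that of Gad2, at -242 and -121. TATAAA on either strand occurred in 13.62%, and among the members in that of Gad1, on its minus strand at -141. These matches describe the letters in the windows and nothing about binding.

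Onecut1 had 3.76, 3.73 and 4.17 CPM in controls, against 2.57, 2.15 and 2.34 CPM in C57, where it rested on 30, 29 and 33 counts. It was 1.68-fold higher in controls (log2 fold change 0.75, SE 0.17, adjusted p = 0.00957, edgeR). Without the third control the adjusted p was 0.0510. Tfap2a had 45.2, 47.4 and 48.4 CPM in controls, against 37.2, 33.6 and 32.6 CPM in C57. It was 1.39-fold higher (log2 fold change 0.47, SE 0.10, adjusted p = 0.00785), without overlap, and had an adjusted p of 0.0524 without the third control and 0.0546 in one fit over the 9 libraries. With the replicate number as a block, neither Tfap2a (adjusted p = 0.0909) nor Onecut1 (adjusted p = 0.115) was called. In that fit the unnumbered C57 library and the third control each stood alone in a block and added nothing to the group effect. Its relative Tfap2b, at 230, 248 and 249 CPM in controls and 210, 212 and 231 CPM in C57, was not called (log2 fold change 0.18, adjusted p = 0.181).

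Calb1 went the opposite way. It had 91.8, 93.5 and 98.3 CPM in controls, against 135, 159 and 186 CPM in C57, so that all controls lay below all C57 libraries. The log2 fold change was -0.74 (SE 0.13, adjusted p = 0.00303, edgeR), and it was called in all 20 refits, at -0.85 to -0.39. The counts of Calb1 per count of Gad1 in the same library, which do not depend on library scaling, were 0.187, 0.178 and 0.190 in controls and 0.343, 0.361 and 0.398 in C57.

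Slc32a1 had 184, 181 and 185 CPM in controls, against 145, 70.1 and 46.6 CPM in the first, second and unnumbered C57 libraries. It was 2.14-fold higher in controls (log2 fold change 1.10, SE 0.36, adjusted p = 0.0379, edgeR), although the C57 libraries differed among themselves by 3.11 times. Leaving out any control, the second C57 library or the unnumbered one ended the call, with adjusted p of 0.0594 to 0.140, whereas leaving out the first gave a log2 fold change of 1.67 (adjusted p = 0.000251). Slc6a9, the glycine transporter, ran the same way within C57, at 396, 307 and 224 CPM, against 255, 269 and 244 CPM in controls, and was not called (log2 fold change -0.25, SE 0.19, adjusted p = 0.320). Gad1 had 490, 526 and 517 CPM in controls and 395, 440 and 468 CPM in C57, and Gad2 had 109, 111 and 110 CPM in controls and 72.2, 88.6 and 99.2 CPM in C57. Both were higher in every control without being called (log2 fold changes 0.26 and 0.36, adjusted p = 0.0926 and 0.0544). Over 27.8% of its exon bases Slc6a9 overlaps Ccdc24 on the opposite strand (2228 counts in all), and Slc32a1 over 24.92% overlaps the antisense gene Gm14205 (43 counts), and the sources used here do not give the strand setting of the counting. Chat had 20.4, 16.4 and 20.7 CPM in controls and 17.7, 16.1 and 18.0 CPM in C57, with overlap (log2 fold change 0.17, adjusted p = 0.326).

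The spread within C57 followed the GC content of the transcripts. GC content was compared over genes tested in controls against C57 with at least 1 CPM in each of the 9 libraries. Their median log2 ratio of the first C57 library over the unnumbered one was -0.53 for transcripts under 40% GC. For those over 60% it was 1.11. The Spearman correlation was 0.789 across genes, which share both libraries and are not independent. The corresponding correlations with the first library of the same group were 0.17 and 0.118 for the other Yap CKO libraries and 0.036 and -0.035 for the other controls. Between the mean of Yap CKO and the mean of controls the correlation was 0.385, with a median log2 ratio of -0.14 for transcripts under 40% GC and 0.12 for those over 60%. Slc32a1, whose longest transcript has 61.9% GC, a content above that of 98.4% of the genes compared, had a log2 ratio of 1.64 between those C57 libraries. Slc18a3 with 61.2% GC had 1.44 and Slc6a9 with 57% had 0.82, whereas Calb1 with 36.8% GC had -0.46 and Gad2 with 44.1% had -0.46. Chat, at 54.3%, had -0.03. A stretch of 120 bases from the middle of the coding sequence of Slc32a1 (coding bases 728 to 847) and of Calb1 (332 to 451) shows this contrast in composition, with G and C in capitals, as annotated in GENCODE M21.
Slc32a1: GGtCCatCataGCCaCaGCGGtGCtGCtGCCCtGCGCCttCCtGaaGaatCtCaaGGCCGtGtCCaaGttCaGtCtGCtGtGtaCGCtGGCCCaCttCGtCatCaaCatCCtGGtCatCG
Calb1: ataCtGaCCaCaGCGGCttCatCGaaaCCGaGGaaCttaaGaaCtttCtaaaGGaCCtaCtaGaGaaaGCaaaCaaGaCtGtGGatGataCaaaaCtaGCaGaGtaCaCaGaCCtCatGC
These stretches hold 57.5% and 43.3% G and C, and the whole coding sequences, of 1575 and 783 bases, hold 61.5% and 43.2%.

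**Figure D3:**
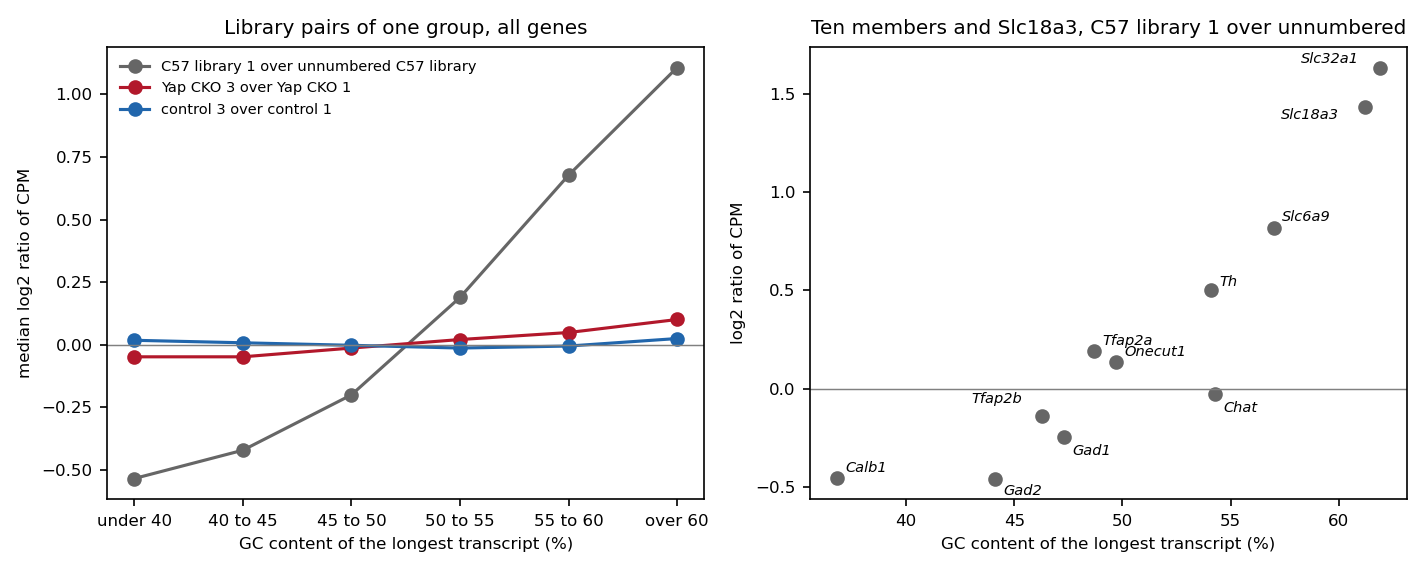
Left, median log2 ratio of CPM between libraries of one group, for a C57, a Yap CKO and a control pair. Genes tested in controls against C57 with at least 1 CPM in each of the 9 libraries are grouped by longest-transcript GC content in percent. Right, the same C57 ratio for the 10 genes and Slc18a3 against their GC content. The C57 pair climbs with GC content from -0.53 to 1.11 and the control pair stays near 0, and Slc32a1 and Slc18a3 lie at the upper right.

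A refit with an offset for GC content in each library, chosen after this pattern had been seen, kept all 5 calls of controls against C57 in their direction and added 4, and called no member in Yap CKO over controls. Slc32a1 then came to 0.46 on the log2 scale (adjusted p = 0.00604), less than its value of 1.10 without the offset. Slc6a9 was called lower in controls (-0.57, adjusted p = 0.000233). Gad1 (0.31, adjusted p = 0.00620), Gad2 (0.47, adjusted p = 0.000487) and Tfap2b (0.24, adjusted p = 0.0235) were called higher. Th had 0.88 and Calb1 -0.55 under the offset, and Chat had -0.003. In all, 7 members were higher and 2 lower, and over all genes 4147 were higher and 4778 lower, against 3655 and 3547 without it. Scaling by library totals alone put the median of all genes at 0.38, gave 6864 genes higher and 1937 lower, and called 8 members higher and 1 lower.

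The comparison of Yap CKO with C57 shares the C57 libraries with the one above. Th and Slc32a1 were again called higher and Calb1 lower. The 2 higher members stand beside 20.3% of 15840 genes called higher, and the 1 lower beside 20.2% called lower, 40.5% in all. At an unadjusted p under 0.05 the count was 3 of 10 members and 50.2% of all genes. The libraries did not overlap for 5 of 10 members, against 55.0% of all genes. The median was 0.24 over the members and 0.02 over all genes. Scaling by library totals alone called 7 members higher and none lower, with 6367 genes higher and 1594 lower, against 3217 and 3202.

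Th had 9.17, 9.95 and 12.8 CPM in Yap CKO, against 4.63, 3.78 and 3.27 CPM in C57. Every Yap CKO library lay above every C57 library, and the log2 fold change of 1.46 (SE 0.22, adjusted p = 0.00140, edgeR) was the largest of the 10 in this fit. It was called in all 20 refits, at 1.20 to 1.82. Calb1 had 98.7, 79.0 and 106 CPM in Yap CKO, against 135, 159 and 186 CPM in C57 (log2 fold change -0.75, SE 0.17, adjusted p = 0.00798). Slc32a1 had 185, 179 and 226 CPM in Yap CKO, against 145, 70.1 and 46.6 CPM in C57 (log2 fold change 1.18, SE 0.38, adjusted p = 0.0398). That call was lost without any 1 of the Yap CKO libraries or without the second or unnumbered C57 library, with adjusted p of 0.0689 to 0.119. With the GC offset Slc32a1 came to 0.47 on the log2 scale (adjusted p = 0.0188), Calb1 -0.38 (adjusted p = 0.0240) and Th 1.30, while Gad2 was called higher (0.51, adjusted p = 0.00630) and Slc6a9 lower (-0.61, adjusted p = 0.00915).

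The other 7 members were not called in Yap CKO against C57. Onecut1 had 2.78, 3.44 and 3.31 CPM in Yap CKO and 2.57, 2.15 and 2.34 CPM in C57 (log2 fold change 0.44, adjusted p = 0.132). Tfap2a had 0.45 (adjusted p = 0.0997), with the second Yap CKO library, at 36.6 CPM, inside the C57 range. Gad2, Gad1, Chat and Tfap2b had 0.30, 0.18, 0.17 and 0.04, and Slc6a9 had -0.25, with adjusted p of 0.155 to 0.874 by edgeR. Slc18a3 was called higher (19.2, 17.8 and 21.8 CPM in Yap CKO, against 14.2, 8.96 and 5.26 CPM in C57; log2 fold change 1.06, adjusted p = 0.0263), and lost the call with the GC offset (0.37, adjusted p = 0.0645).

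**Figure D4:**
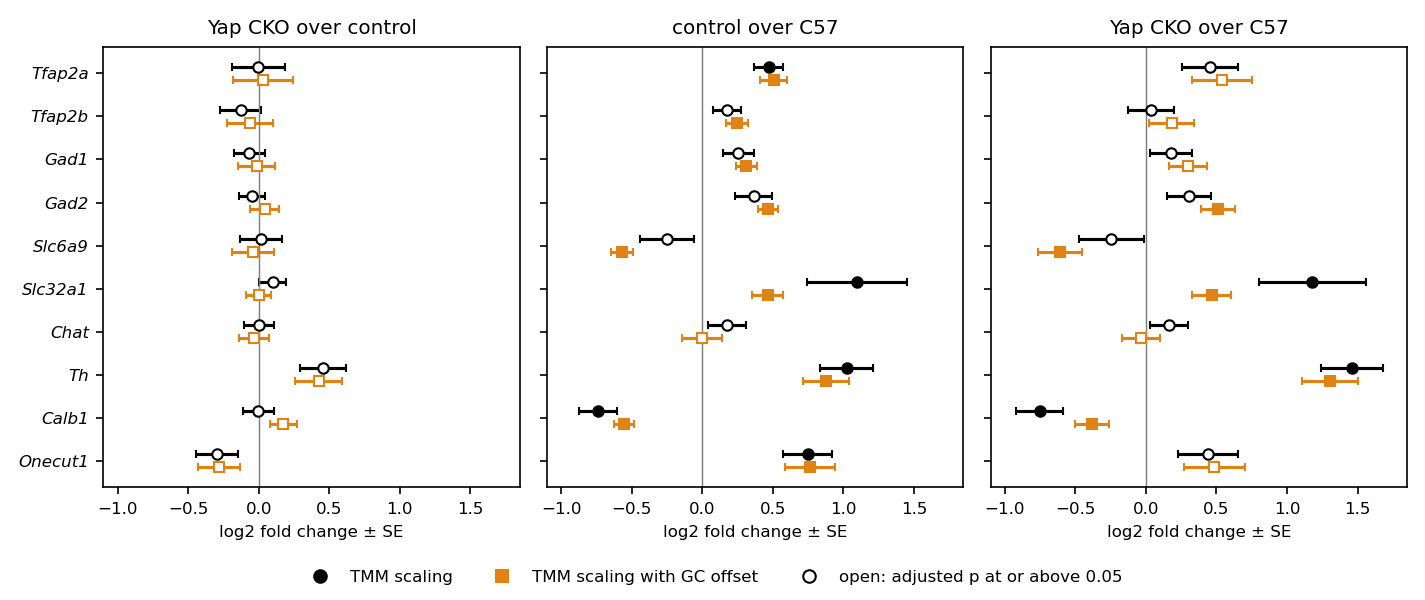
log2 fold change ± SE of the 10 genes in Yap CKO over control, control over C57 and Yap CKO over C57 (6 libraries each), with TMM scaling (black) and with an added GC content offset (orange). Filled symbols have an adjusted p under 0.05. All symbols are open in the first panel, and Slc32a1 falls by more than its SE under the offset in both panels against C57.

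Ratios of members within a library separated some pairs from others. Gad1 per Gad2 count was 4.43 to 4.76 in Yap CKO, 4.51 to 4.71 in controls and 4.71 to 5.46 in C57. Tfap2a per Tfap2b count was 0.192 to 0.224 in Yap CKO, 0.191 to 0.197 in controls and 0.141 to 0.177 in C57, so that the P60 libraries lay above all C57 libraries. Slc32a1 per Gad1 count was 0.394 to 0.417 in Yap CKO and 0.343 to 0.375 in controls, without overlap, and was 0.367, 0.159 and 0.0997 in the C57 libraries. Chat per Slc18a3 count was 0.852 to 1.08 in Yap CKO, 0.997 to 1.30 in controls and 1.24, 1.79 and 3.42 in C57. Longest-transcript GC content was 61.9% for Slc32a1 and 47.3% for Gad1, and 61.2% for Slc18a3 and 54.3% for Chat. These ratios carry no correction for GC content. With the GC offset, the log2 fold changes of Slc32a1 and Gad1 in Yap CKO over controls were -0.00082 and -0.016.

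Other genes of the same cells were read from lists that share no gene with the 10. Among 20 tested amacrine genes, 12 were higher and 2 lower in controls than in C57 (median log2 fold change 0.45), beside 23.1% of all genes called higher and 22.4% called lower, shares that also stand behind the counts of the lists that follow. Gliosis genes moved with them: 12 of 12 were higher in controls than in C57 (median 4.89), and 10 of 12 in Yap CKO than in C57 (median 4.57). Ciliary epithelium genes were also higher in controls than in C57 for 7 of 9 and lower for 1 (median 1.15). The part of these markers in the list counts was not tested. Slc17a8, the vesicular glutamate transporter of a glutamate-releasing amacrine type, had 86.6 ± 4.35 CPM in controls and 22.9 ± 4.93 CPM in C57 (SD, n = 3 each; log2 fold change 1.94, adjusted p = 0.00012, edgeR). The transcription factor genes Neurod2 and Prdm13 had log2 fold changes of 1.13 and 0.90, and Gjd2, which encodes the neuronal gap junction protein connexin 36, had -1.02 (adjusted p = 0.000871, 0.00139 and 0.000266). The longest transcripts of Slc17a8, Neurod2, Prdm13 and Gjd2 have 44.0%, 58.7%, 62.2% and 48.8% GC. Over the genes compared for GC content above, the median log2 ratio of controls over C57 was 0.255 at 55 to 60% GC and 0.659 over 60%. At 40 to 45% and 45 to 50% it was -0.13 and -0.097. The counts of calls in the lists are given without the GC offset. In Yap CKO over C57, 11 of the 20 amacrine genes were higher and 3 lower, beside 20.3% and 20.2% of all genes.

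In Yap CKO against controls, 1 of these 20 was called, beside 0.200% of all genes. Slc17a8 had 53.0 ± 5.46 CPM in Yap CKO and 86.6 ± 4.35 CPM in controls (SD, n = 3 each), without overlap, with a log2 fold change of -0.71 (adjusted p = 0.0496, edgeR). The call ended without any control or without the first or second Yap CKO library (adjusted p = 0.0828 to 0.207), with the GC offset (0.0754) and with limma-voom (0.0748), while the log2 fold change stayed between -0.80 and -0.62. At an unadjusted p under 0.05 the count was 5 of 20, beside 17.8% of all genes. Calb2, the calretinin gene, had 728 ± 7.55 CPM in Yap CKO and 612 ± 10.3 CPM in controls (log2 fold change 0.25, adjusted p = 0.119).

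The other horizontal cell genes divided. Of 11, 4 were higher and 5 lower in controls than in C57 (median log2 fold change -0.15), and 1 was higher and 5 lower in Yap CKO than in C57 (median -0.32). Gja10, which encodes a connexin of horizontal cells, had 3.07 ± 0.442 CPM in controls and 6.29 ± 0.822 CPM in C57 (log2 fold change -1.01, adjusted p = 0.00339), and 1.93 ± 0.407 CPM in Yap CKO (SD, n = 3 each; -1.70 against C57, adjusted p = 0.000900). Septin4 and Tnr had -1.20 and -0.68 in controls over C57 (adjusted p = 0.000703 and 0.00257). The 4 higher genes were Lhx1 (0.543), Onecut3 (0.635), Megf11 (0.387) and Slc4a3 (0.664), with adjusted p of 0.0117 to 0.0488 by edgeR. In Yap CKO against controls none of the 11 was called by edgeR or DESeq2, and 10 of 11 fold changes were negative (median -0.17). An unadjusted p under 0.05 was found for 1 of 11, beside 17.8% of all genes. Without the third Yap CKO library, 5 were called lower, beside 817 lower of 16809 genes tested. Markers of other cells also moved against C57: of 15 Müller cell genes 8 were lower and 4 higher in controls, of 10 pigment epithelium genes 7 were lower and 1 higher, and all 20 rod genes were lower. Their part in the falls of horizontal cell genes was not tested.

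**Figure D5:**
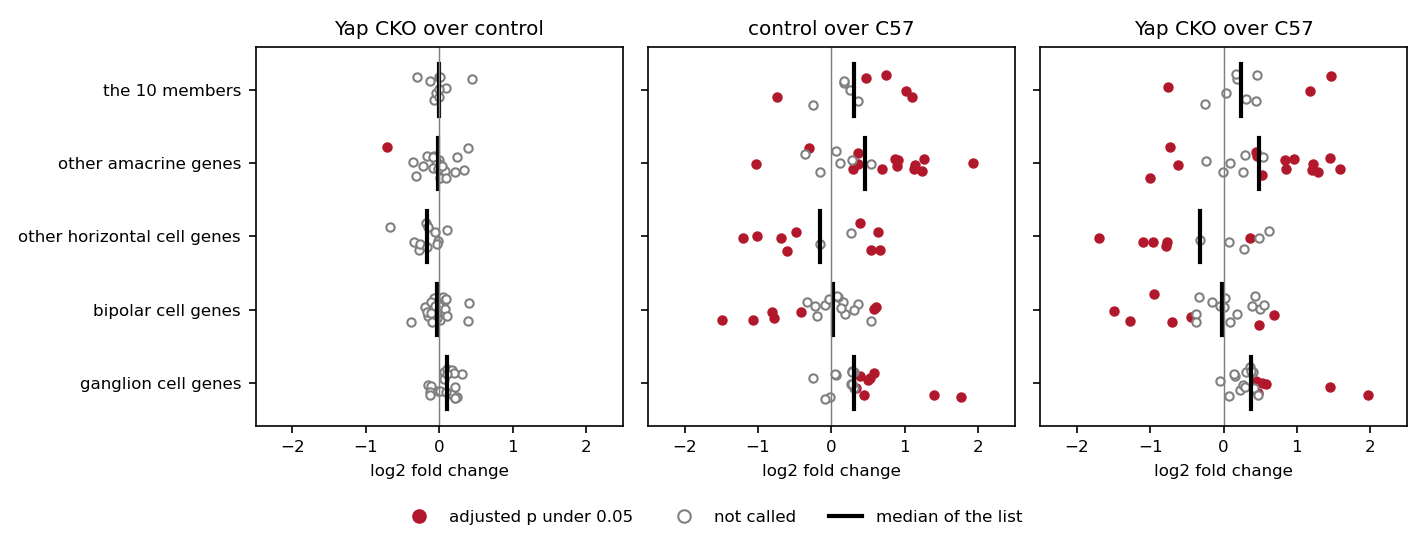
log2 fold change of each tested gene in 5 lists (rows) for the 3 comparisons, with the median of the list as a black bar, red points for an adjusted p under 0.05 and open points otherwise. In Yap CKO over control 1 point is red, Slc17a8 among the other amacrine genes, and against C57 the other amacrine genes and the ganglion cell genes have medians of 0.30 to 0.49.

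The transmitter pathways around the members moved gene by gene. Among 14 tested genes of the dopamine pathway, 3 were higher and 2 lower in controls than in C57, 5 of 14 in all, beside 45.5% of all genes called in either direction. Gch1, the entry enzyme for the cofactor of tyrosine hydroxylase, had 16.3 ± 2.15 CPM in controls and 0.887 ± 0.136 CPM in C57 (SD, n = 3 each; log2 fold change 4.20, adjusted p = 1.41e-05, edgeR), and Slc18a2 had 7.54 ± 0.188 CPM in controls and 4.40 ± 0.655 CPM in C57 (0.80, adjusted p = 0.00480). In the same comparison Maoa was higher (0.66, adjusted p = 0.00554, edgeR). The 2 lower genes were Pts (-0.65, adjusted p = 0.00796) and Qdpr (-0.36, adjusted p = 0.0168). Ddc had -0.61 there and -0.64 in Yap CKO over C57, without a call (adjusted p = 0.0745 and 0.0945, edgeR). Slc6a3, with means of 0.187 CPM in controls and 0.3 CPM in C57, did not pass the filter on low counts. Of the 14 fold changes in controls over C57, 9 were positive and 5 negative. The gliosis genes given above were higher in the same comparison, and their part in these values was not tested. Gch1 was also higher in Yap CKO than in C57 (12.3 ± 3.56 CPM, log2 fold change 3.78, adjusted p = 7.93e-05). In Yap CKO over controls no gene of the pathway was called by edgeR or DESeq2. An unadjusted p under 0.05 was found for 4 of 14, beside 17.8% of all genes.

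Among 18 acetylcholine pathway genes, 5 were higher and 2 lower in controls than in C57, and 6 higher and 3 lower in Yap CKO than in C57. Sox2, a factor of starburst amacrine cells that Müller cells also express, had 83.7 ± 2.28 CPM in controls, 88.6 ± 15.8 CPM in Yap CKO and 19.3 ± 0.82 CPM in C57 (SD, n = 3 each), with log2 fold changes of 2.14 and 2.20 for controls and Yap CKO over C57. Chrna6, a nicotinic receptor subunit gene, had -0.69 in controls over C57 (adjusted p = 0.00304, edgeR). The other lower gene there was Isl1 (-0.42, adjusted p = 0.0133), which was also lower in Yap CKO than in C57 (-0.44, adjusted p = 0.035). In controls over C57 Fezf1 was higher (1.16, adjusted p = 0.012), and Megf10 had -0.28 without a call (adjusted p = 0.188). Of the 18 fold changes in that comparison, 11 were positive and 7 negative.

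The genes of GABA and glycine turnover beside Gad1, Gad2 and the transporters gave 2 higher and 3 lower of 15 in controls over C57. Glul, the glutamine synthetase of Müller cells, had 934 ± 144 CPM in controls and 4140 ± 127 CPM in C57 (SD, n = 3 each; log2 fold change -2.13, adjusted p = 6.27e-05, edgeR), and Slc6a11, a GABA transporter gene, had -0.67 (adjusted p = 0.00132). Of 18 genes for receptors and scaffolds of GABA and glycine synapses, 1 was higher and 3 lower in controls than in C57. Gphn, which encodes the scaffold gephyrin, had -0.43 and Gabrr1, a GABA receptor subunit gene of bipolar cells, -0.41 (adjusted p = 0.00970 and 0.0115). None of the 33 was called by edgeR in Yap CKO over controls, where DESeq2 called 3 lower, beside 558 lower of all 16539 genes tested. An unadjusted p under 0.05 was found for 7 of 33, beside 17.8% of all genes. Glra1, a glycine receptor subunit gene, had 12.5 ± 2.26 CPM in Yap CKO and 20.3 ± 1.69 CPM in controls (SD, n = 3 each; -0.70, adjusted p = 0.0811).

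Of 11 tested neuropeptide genes, many of which amacrine cells express, 7 were higher and none lower in controls than in C57, and 9 higher and none lower in Yap CKO than in C57. The gliosis and ciliary epithelium genes given above were higher in the same comparison of controls with C57. Penk, the enkephalin precursor, had 165 ± 56.4 CPM in controls and 23.1 ± 4.29 CPM in C57 (SD, n = 3 each; log2 fold change 2.86, adjusted p = 0.000161, edgeR), and Vgf had 131 ± 5.34 and 27.2 ± 3.51 CPM in the same groups (2.29, adjusted p = 1.98e-05). The longest transcript of Vgf has 64.1% GC and that of Penk 52.7%. In Yap CKO over controls edgeR called none, and 6 of 11 had an unadjusted p under 0.05, beside 17.8% of all genes. DESeq2 called 2 higher and 2 lower, beside 364 higher and 558 lower of all 16539 genes tested. Penk had 43.3 ± 10.3 CPM in Yap CKO and 165 ± 56.4 CPM in controls (-1.93, adjusted p = 0.0746), without overlap, and Npy had 24.3 ± 2.77 CPM in Yap CKO and 12.6 ± 1.87 CPM in controls (0.94, adjusted p = 0.0533). All 9 tested ciliary epithelium genes had negative fold changes in Yap CKO over controls (median log2 fold change -0.65). The groups did not overlap for 6 of them, against 25.3% of all genes. Of these genes edgeR called none, DESeq2 called 5 lower and 6 had an unadjusted p under 0.05, beside the all-gene values just given. Their part in the Penk and Npy values was not tested.

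For other inner retinal neurons, 2 of 20 bipolar cell genes were higher and 5 lower in controls than in C57 (median log2 fold change 0.02), and 8 of 19 tested ganglion cell genes were higher and none lower (median 0.30, beside 0.31 for the 10 members). Whether these lists differ from the members was not tested. In Yap CKO over controls neither list had a call by edgeR, and their medians were -0.03 and 0.10.

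Leaving out 1 library moved several of these counts. Without the third Yap CKO library, edgeR called 2 higher and 3 lower of the amacrine genes in Yap CKO over controls, 3 higher and 1 lower of the neuropeptide genes, 5 lower of the synaptic genes, and 2 higher and 4 lower of the bipolar cell genes. That refit called 656 higher and 817 lower of 16809 genes tested. In controls over C57, the count of higher amacrine genes was 8 to 13 over the 6 refits that left out a library each, and that of neuropeptide genes 6 to 7. The count of higher ganglion cell genes was 3 to 11 and that of higher bipolar cell genes 1 to 6, with 3 ganglion cell genes higher without the third control and 6 bipolar cell genes higher without the first C57 library. No horizontal cell gene was called higher without the second C57 library, while 4 to 6 of the 11 were called lower in each refit. Over all genes, these 6 refits called 2546 to 4832 higher and 2493 to 4423 lower, among 15273 to 16768 tested. The 2546 came without the third control (15322 tested) and the 4832 without the first C57 library (16754 tested). Without the second C57 library 2619 of 16748 were higher.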

How the data were processed

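Whole-retina RNA of 9 libraries (3 Yap CKO, 3 control, 3 C57) was made into directional sequencing libraries from 1 µg of total RNA, per the labels' protocols. HISAT2 2.1.0, featureCounts, edgeR and build GRCm38 are listed in the submitters' processing notes, while annotation release and strand setting are not given in the sources. The authors' deposited count table holds raw read counts per gene. Their deposited table of log2 fold changes, per the file headers, was read only for which members it lists.

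Symbols, positions, exon lengths and GC content came from GENCODE M21 (GRCm38), which held 47310 of 47729 identifiers. Each comparison was fitted on its 6 libraries with edgeR 4.0.16 (R 4.3.3): filterByExpr (minimum count 10), TMM scaling, robust quasi-likelihood F-tests, and Benjamini-Hochberg adjustment over all genes tested at 0.05. Standard errors are the absolute log2 fold change divided by the square root of F. CPM shown per library are TMM-scaled over the 9 libraries. The test was tried on simulated counts with known changes. Alternatives were other scalings and count filters, DESeq2 1.42.0, limma-voom (limma 3.58.1), other thresholds, one fit over 9 libraries, a replicate block, a rod covariate, thinning and leaving out each library. A GC content offset (a loess curve of each library's log2 deviation from the gene mean on transcript GC content) was added after seeing the data, as was running the alternatives on the gene lists. A refit is 1 of 20 such settings.

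All 10 members were named, with up to 4 genes of smallest p per other list and comparison, not all of which are described. Further genes, called or not in controls over C57, were named in the dopamine, acetylcholine and horizontal cell lists. The members and lists were chosen with earlier results of these data known. Replicate numbers were not taken to pair the libraries.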

Additional observations from a re-analysis of the deposited data

How the results depend on the processing

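In Yap CKO against controls, 0 members were called higher or lower, except 1 higher with the rod level covariate (Th) and 0 to 1 lower over the fits that left out a library (Tfap2b without the third Yap CKO library). In controls against C57, the count of higher members was 8 with library totals alone, 7 with the GC content offset and 1 to 5 over the fits without a library, and that of lower members was 2 with the offset and 1 to 2 without a library. In Yap CKO against C57, the count of higher members was 7 with library totals alone, 1 at an adjusted p under 0.01 and 1 to 2 without a library, and that of lower members was 0 with library totals alone and 2 with the GC content offset. The cause of these moves was not tested.

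With the replicate number as a block, 2 members were lower in Yap CKO than in C57 (Slc6a9 was added), while in controls against C57 Tfap2a (adjusted p = 0.0909) and Onecut1 (0.115) were no longer called and Gad2 was called higher (0.0442). The block changed no other call of a member. Against C57, the unnumbered C57 library and the third P60 library each stood alone in a block. The group effect in these fits therefore rests on the first and second libraries of each group. Across genes, the deviations of same-numbered Yap CKO and control libraries from their group means (log2 scale) correlated at 0.528, -0.0767 and 0.0103. Differently numbered pairs ran from -0.601 to 0.485, so the numbers were not taken as a pairing.

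Signs that turned belong to members that were not called. In Yap CKO against controls these were, on the log2 scale, Tfap2a (0.039 with upper-quartile scaling, 0.00024 with a filter of 1 CPM, 0.0016 in one fit over 9 libraries, 0.031 with the GC offset, -0.26 to 0.14 without a library), Gad1 (-0.19 to 0.014 without a library), Gad2 (0.043 with the GC offset, -0.14 to 0.025 without a library), Slc6a9 (-0.043 with scaling on bipolar and ganglion cell genes, -0.0071 with limma-voom, -0.0076 with the replicate block, -0.040 with the GC offset, -0.060 with the rod covariate, -0.19 to 0.10 without a library), Slc32a1 (-0.00082 with the GC offset, -0.018 to 0.16 without a library), Chat (-0.0011 with RLE scaling, -0.040 with scaling on bipolar and ganglion cell genes, -0.0081 with no count filter, -0.0010 with DESeq2, -0.032 with the GC offset, -0.097 to 0.063 without a library) and Calb1 (0.039 with upper-quartile scaling, 0.0014 with the filter of 1 CPM, 0.0028 in one fit over 9 libraries, 0.17 with the GC offset, -0.097 to 0.11 without a library). In controls against C57 they were Slc6a9 (0.099 with library totals alone) and Chat (-0.0029 with the GC offset). In Yap CKO against C57 they were Tfap2b (-0.060 with scaling on bipolar and ganglion cell genes, -0.11 with the replicate block, -0.15 to 0.14 without a library), Slc6a9 (0.11 with library totals alone) and Chat (-0.034 with the GC offset).

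Over all genes, edgeR called 3 higher and 30 lower in Yap CKO against controls, DESeq2 364 and 558, and a fit without the third Yap CKO library 656 and 817. Precision is limited by 3 libraries a group and, for Th and Onecut1, by 29 to 54 counts per C57 library.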
